A study of Mus musculus with 9 samples.

Results

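Malat1, Neat1 and Gm37376 are 3 non-coding features of mouse chromosome 19, and their counts were described in RNA-seq libraries of the mouse uterus. The 3 were chosen by name with their measured values known, namely a very high count on Gm37376, a low count on Malat1 and a wide spread between the sham-operated libraries. They were 3 of 55228 features, and 2 of the 3 (Malat1 and Gm37376) passed the filter on low counts that left 3722 features for testing. All values of the 3 are therefore given as a description, without a test.

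Malat1 and Neat1 are long RNAs that are kept in the nucleus. Malat1 gathers in nuclear speckles, which are stores of splicing factors, and Neat1 is the scaffold on which paraspeckles are built. Malat1 and the long form of Neat1 are cut by RNase P behind an A-rich tract encoded in the genome, which folds into a triple helix and takes the place of a poly(A) tail, while the short form of Neat1 has a poly(A) tail. In the mouse, Neat1 is needed for the corpus luteum and so for pregnancy. Gm37376 is a gene model of unknown function on the strand opposite Malat1.

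The study asked how injured endometrium is restored by transplanted conditionally reprogrammed cells (CRCs), which are cultured mouse endometrial epithelial cells. The animals were WT female C57BL mice, 8 weeks old, with 3 mice in each of 3 groups and 1 library per mouse, and uterine tissue was taken on day 7. The sham-operated group had a sham operation. In both other groups the uterus was injured mechanically from inside, by turning a 27-gauge needle with 10 withdrawals. Afterwards 50 μL was given, which was PBS in the injury group and held 1000000 WT CRCs in the CRCs-transplanted group. Features held 325384, 317754 and 327883 counts in sham-operated replicates 1 to 3, 290684, 280886 and 282937 in the injury group and 288619, 289964 and 290833 in the CRCs-transplanted group. These were under 1% of the 34046496 to 39204442 records of a library, since 99.2% of all records lay in 5 rows for records that were not assigned to a feature.

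The tissue was compared with markers of the uterus, and most of them had few counts. The 8 stromal markers held 1366 counts in all, led by the progesterone receptor gene Pgr with 619. The 8 smooth muscle markers held 937, led by the myosin gene Myh11 with 459, whereas the 5 features opposite these markers held 133385. Of the 8 epithelial markers, 7 had under 10 counts, and Cdh1 and Foxa2 were at 0 in all 9 libraries. Of the 8 leukocyte markers, 6 were at 0 (Ptprc, Adgre1 and Lyz2 among them), and Csf1r held 496 of their 498 counts. The 4 endothelial markers held 48 counts (Pecam1 26), the 3 mesothelial markers 13 (Wt1 12, Upk3b at 0) and the 4 adipocyte markers 59 (Lep 56, Adipoq and Fabp4 at 0). In whole tissue, fewer cells of a type and less RNA per cell cannot be told apart. Nor do the sources used here say which strand was counted, and the part of this in the low counts of markers was not tested; Tagln, a smooth muscle marker, had 159 counts beside 130075 on Gm48529 on the opposite strand.

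The summed counts of some marker lists moved with the groups. The smooth muscle markers had 123, 151 and 137 counts in the sham-operated, 84, 95 and 90 in the injury and 79, 76 and 102 in the CRCs-transplanted libraries. The features opposite them, nearly all Gm48529 (130075 of 133385), had 22033, 18205 and 18738 counts in the sham-operated, 15805, 15167 and 15508 in the injury and 9683, 9138 and 9108 in the CRCs-transplanted libraries. Both sums were highest in the sham-operated group, and for the opposite features the 3 groups did not overlap. The leukocyte markers, nearly all Csf1r, had 66, 63 and 79 counts in the sham-operated, 63, 49 and 62 in the injury and 45, 36 and 35 in the CRCs-transplanted libraries. The stromal markers had 125, 120 and 182, then 120, 129 and 106, then 204, 191 and 189 counts in the same order of groups. The 5 features opposite the stromal markers, with 8053 counts in all, had 841, 1095 and 835, then 626, 691 and 745, then 1115, 961 and 1144, so that all 3 injury libraries were the lowest there. The CRCs-transplanted libraries were thus the lowest for the leukocyte sum. The adipocyte markers, nearly all Lep, had 4, 1 and 5 counts in the sham-operated libraries. They had 9, 27 and 9 in the injury and 0, 4 and 0 in the CRCs-transplanted libraries. All 3 injury libraries were the highest for this sum, which rests on few counts. These are counts without scaling, and their part in the differences between groups given for single genes was not tested.

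Malat1 (ENSMUSG00000092341.3) lies on the minus strand at chr19:5795690-5802672 of GRCm38, with 6983 exonic bases and 4 annotated transcripts. Gm37376 (ENSMUSG00000102349.1) is a single exon of 453 bases on the plus strand at chr19:5801941-5802393, which the annotation lists as still awaiting experimental evidence. It lies wholly inside the exon of Malat1, opposite bases 280 to 732 of the Malat1 RNA, so that it covers 6.49% of the Malat1 length near its 5′ end. Neat1 (ENSMUSG00000092274.3) lies 22035 bases away on the minus strand, at chr19:5824708-5845478, with 20771 exonic bases and 4 annotated transcripts. No feature is annotated opposite Neat1.

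**Figure D1:**
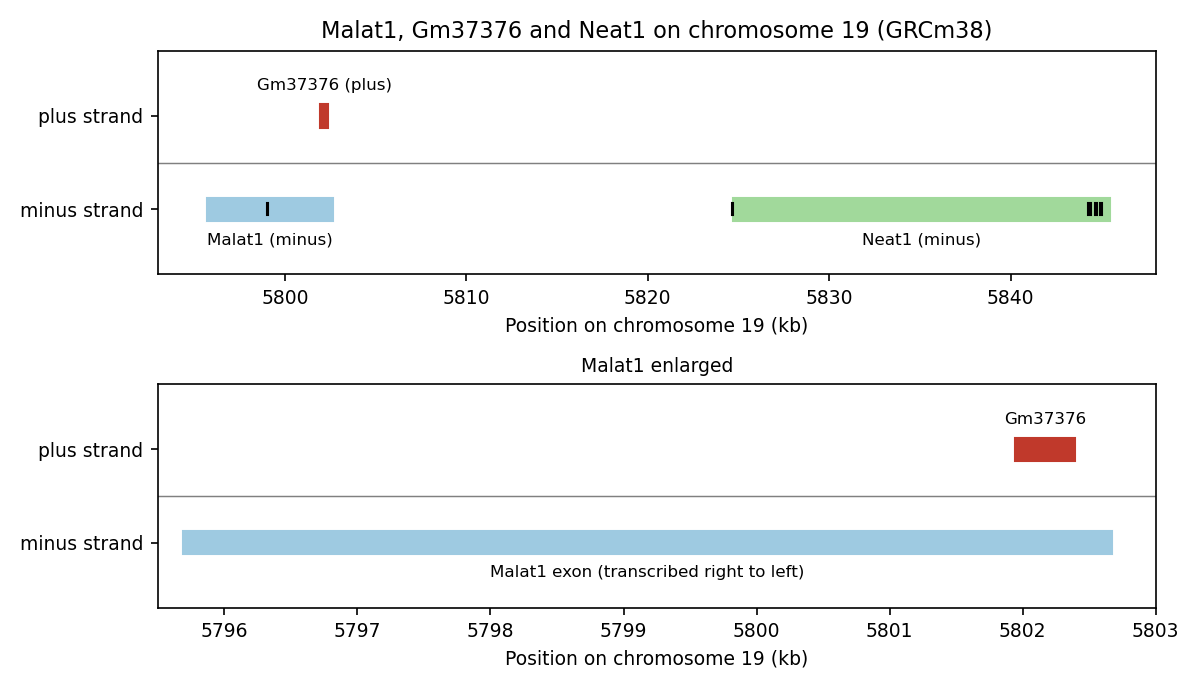
Map of chromosome 19 (GRCm38, position in kb) with Malat1 (blue) and Neat1 (green) on the minus strand, Gm37376 (red) on the plus strand and 5 small annotated RNAs in black. The enlarged view shows the 453 bases of Gm37376 inside the Malat1 exon.

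Gm37376 was among the most abundant features of these libraries. Its counts were 7096, 14037 and 10361 in sham-operated replicates 1 to 3, 6630, 6942 and 8038 in the injury group and 7575, 7576 and 9746 in the CRCs-transplanted group. The sum of 78001 counts was 2.89% of all counts on features, the rank 3 in total and the rank 1 per kilobase of annotated exon. Within single libraries Gm37376 ranked between 1 (CRCs-transplanted replicate 3) and 4 (sham-operated replicate 1).

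In CPM (counts per 1000000 counts of a library, with library sizes scaled by TMM), Gm37376 reached 23015, 51957 and 37049 in the sham-operated libraries. The injury libraries had 23006, 24410 and 28204 CPM, and the CRCs-transplanted libraries had 23071, 23280 and 29726 CPM. Sham-operated replicates 2 and 3 were the highest of the 9 libraries, while sham-operated replicate 1 lay among the lowest libraries of the other groups, so the groups overlapped in each comparison. The group means were 37340 ± 14473 CPM in sham-operated mice, 25207 ± 2689 in injured mice and 25359 ± 3783 in CRCs-transplanted mice (SD, n = 3 each). The order of the means was sham-operated, CRCs-transplanted, injury, and no neighbours in this order differed beyond their spread.

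The fitted log2 fold change of Gm37376 was -0.57 (SE 0.25) in the injury group against the sham-operated group and -0.56 (SE 0.25) in the CRCs-transplanted group against the sham-operated group. It was 0.01 (SE 0.25) between the CRCs-transplanted and injury groups. The first 2 values share the sham-operated libraries and rest on them: without sham-operated replicate 2 they were -0.26 and -0.27, and without sham-operated replicate 1 they were -0.81 and -0.83. With sham-operated replicates 2 and 3 both left out, a choice made after seeing the data, they were 0.12 and 0.085, where the lone sham-operated library was assumed to vary like the other groups.

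Malat1 itself had few counts. Sham-operated replicates 1 to 3 had 3, 17 and 17 counts, the injury libraries 14, 12 and 16, and the CRCs-transplanted libraries 10, 8 and 18, which made 115 counts in all. The exact Poisson interval (95%) of the 3 counts in sham-operated replicate 1 was 0.619 to 8.77 counts, and that of the 17 counts in replicates 2 and 3 was 9.90 to 27.2. Intervals of this kind cover counting error only.

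In CPM, Malat1 was at 9.73, 62.9 and 60.8 in the sham-operated libraries, at 48.6, 42.2 and 56.1 in the injury libraries and at 30.5, 24.6 and 54.9 in the CRCs-transplanted libraries. Sham-operated replicate 1 was the lowest of the 9 libraries and sham-operated replicates 2 and 3 were the highest, so both other groups lay inside the range of the sham-operated group. The means were 44.5 ± 30.1, 49.0 ± 6.98 and 36.6 ± 16.1 CPM (SD, n = 3 each), in the order injury, sham-operated, CRCs-transplanted, and neighbours in this order did not differ beyond their spread. The fitted log2 fold change was 0.16 (SE 0.54) for injury against sham-operated, -0.26 (SE 0.55) for CRCs-transplanted against sham-operated and -0.41 (SE 0.54) for CRCs-transplanted against injury. The first of these was -0.33 without sham-operated replicate 1 and 0.49 without replicate 2, and the second was -0.77 and 0.056. The second was also above 0 without sham-operated replicate 3 (0.026) and with library sizes from all records (0.046).

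Neat1 was near the limit of detection and was not tested. It had 2, 0 and 3 counts in the sham-operated libraries, 2, 2 and 0 in the injury libraries and 2, 1 and 4 in the CRCs-transplanted libraries, 16 counts in all. With 3 counts taken as the one-sided upper limit of a count of 0 (the exact interval used for Malat1, which has 2 sides, goes up to 3.69), the limit was 9.14 to 11.1 CPM depending on the library, and 8 of the 9 libraries were at or below 3 counts. The means were 5.74 ± 5.40, 4.66 ± 4.03 and 7.12 ± 4.65 CPM (SD, n = 3 each), and a difference in Neat1 was not detectable with so few counts. Which strand was counted is not given in the sources used here. As no feature is annotated opposite Neat1, records assigned to the other strand could not be seen, and their part in the low counts was not tested.

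**Figure D2:**
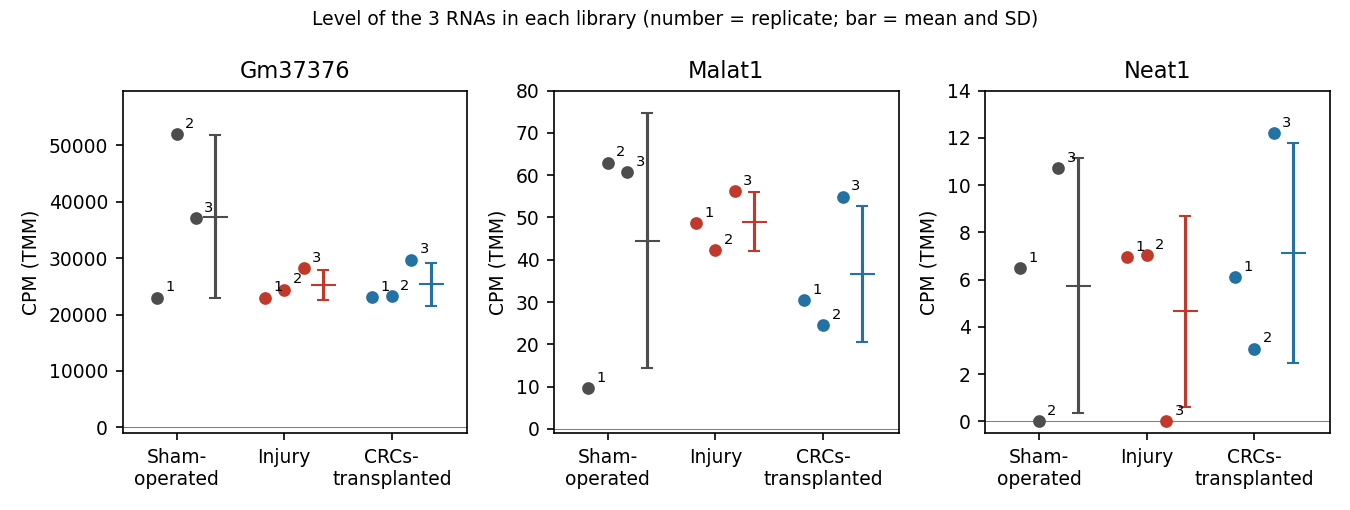
CPM (TMM) of Gm37376, Malat1 and Neat1 in each library, with the replicate number beside each point and a bar for the mean and SD of each group of 3. For Gm37376, sham-operated replicates 2 and 3 lie at 51957 and 37049 CPM and the other 7 libraries between 23006 and 29726 CPM; each vertical axis has its own scale.

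Per kilobase of annotated exon, the level of Gm37376 was 82429 ± 31949 CPM in sham-operated mice, 55644 ± 5937 in injured mice and 55980 ± 8351 in CRCs-transplanted mice. Malat1 was at 6.37 ± 4.31, 7.01 ± 1.00 and 5.25 ± 2.30 CPM per kilobase, and Neat1 at 0.276 ± 0.260, 0.224 ± 0.194 and 0.343 ± 0.224. The order Gm37376, Malat1, Neat1 held for the means of all 3 groups. The counts per kilobase over all libraries were 172188, 16.5 and 0.770.

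Of the counts on the pair, nearly all lay on the Gm37376 side. The share of Malat1 among the summed counts of Gm37376 and Malat1 was 0.0423%, 0.121% and 0.164% in the sham-operated libraries, 0.211%, 0.173% and 0.199% in the injury libraries and 0.132%, 0.105% and 0.184% in the CRCs-transplanted libraries. The smallest share was in sham-operated replicate 1 (exact Clopper-Pearson interval 0.00872% to 0.123%) and the largest in injury replicate 1 (0.115% to 0.353%). The group means were 0.109 ± 0.0616%, 0.194 ± 0.0195% and 0.141 ± 0.0401% (SD, n = 3 each). All 3 injury libraries lay above the 3 sham-operated ones, and the CRCs-transplanted libraries overlapped with both. The shares rest on few Malat1 counts, and intervals of the 2 groups overlapped, as in sham-operated replicate 3 (0.0955% to 0.262%) and injury replicate 2 (0.0892% to 0.301%). For the levels of single features, these 2 groups did not overlap in 15.7% of all tested features.

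Such a lopsided split was common in these libraries. Among 504 pairs of features with overlapping exons on opposite strands and at least 1000 counts, the Malat1 pair ranked 3 by its total of 78116 counts, and 107 pairs had a larger share on their main feature. The median share of the main feature was 97.0%, beside 99.9% for the Malat1 pair. The pair with the highest total was Gm48529 opposite Tagln, a smooth muscle gene, with 130234 counts and 99.9% of them on Gm48529. Of 42 pairs in which one feature lies wholly inside the other, the inner feature held more counts in 19. The sources used here do not give the strand setting of the counting, so whether the counts on Gm37376 came from RNA of its own strand or from Malat1 RNA cannot be told apart. Records that fell on more than 1 feature, which the counting left out as ambiguous, were fewer than the counts on Gm37376 in 7 of the 9 libraries.

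The spread between libraries of a group was described for Malat1 and Gm37376. The coefficient of variation (CV) of Gm37376 was 38.8% in the sham-operated, 10.7% in the injury and 14.9% in the CRCs-transplanted group. Among the 18 most abundant features, those averaging 1000 counts or more, its CV ranked 4 in the sham-operated, 2 in the injury and 4 in the CRCs-transplanted group, and the medians of the 18 were 14.1%, 6.39% and 9.29%. The sham-operated group was thus the widest for these features in general, and the rank of Gm37376 was no higher there than in the other groups. Without sham-operated replicate 1 the CV of Gm37376 was 23.7%. For Malat1 the CV was 67.7% in the sham-operated group, 14.3% in the injury group and 43.9% in the CRCs-transplanted group. It was 2.44% without sham-operated replicate 1 and 102% or 104% without replicate 2 or 3. The CV of Malat1 was higher than that of 79.3%, 12.6% and 72.6% of 1937 features with a mean within 2-fold of its own, in the order sham-operated, injury, CRCs-transplanted, and the medians of the 1937 were 43.6%, 34.5% and 30.8%.

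Several measures of the libraries were, like Gm37376, highest in sham-operated replicates 2 and 3. CT010467.1, a ribosomal RNA feature singled out after its values were seen, had 16272, 128447 and 145849 CPM in the sham-operated libraries, 45914, 20451 and 26285 in the injury libraries and 15588, 7191 and 17815 in the CRCs-transplanted libraries. It was 1.54%, 10.9% and 12.4% of the feature counts of sham-operated replicates 1 to 3. Sham-operated replicates 2 and 3 were thus the 2 highest libraries for CT010467.1 as well as for Gm37376. Within the injury group, by contrast, replicate 1 had the most CT010467.1 and the least Gm37376.

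Ambiguous records numbered 2571, 28622 and 24851 in the sham-operated libraries and 1751 to 6470 in the other 6. Records of low alignment quality made up 3.11%, 4.75% and 3.90% of the sham-operated libraries and 3.07% to 3.39% of the others, and records that did not align made up 1.61%, 3.13% and 2.52% against 1.36% to 1.81%. In each of these 3 measures sham-operated replicates 2 and 3 were above the other 7 libraries. Records without a unique alignment made up 3.74%, 3.86% and 3.65% of the sham-operated libraries and 2.95% to 3.72% of the others, so replicate 3 did not stand apart there. The part of all these measures in the values of Gm37376 and Malat1 was not tested. With CT010467.1 left out of the fit, also a choice made after seeing the data, the log2 fold changes of Gm37376 were -0.57 and -0.56 against the sham-operated group. As a share of the feature counts without CT010467.1, Gm37376 was 2.21%, 4.96% and 3.61% in the sham-operated libraries and 2.39% to 3.42% in the others.

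**Figure D3:**
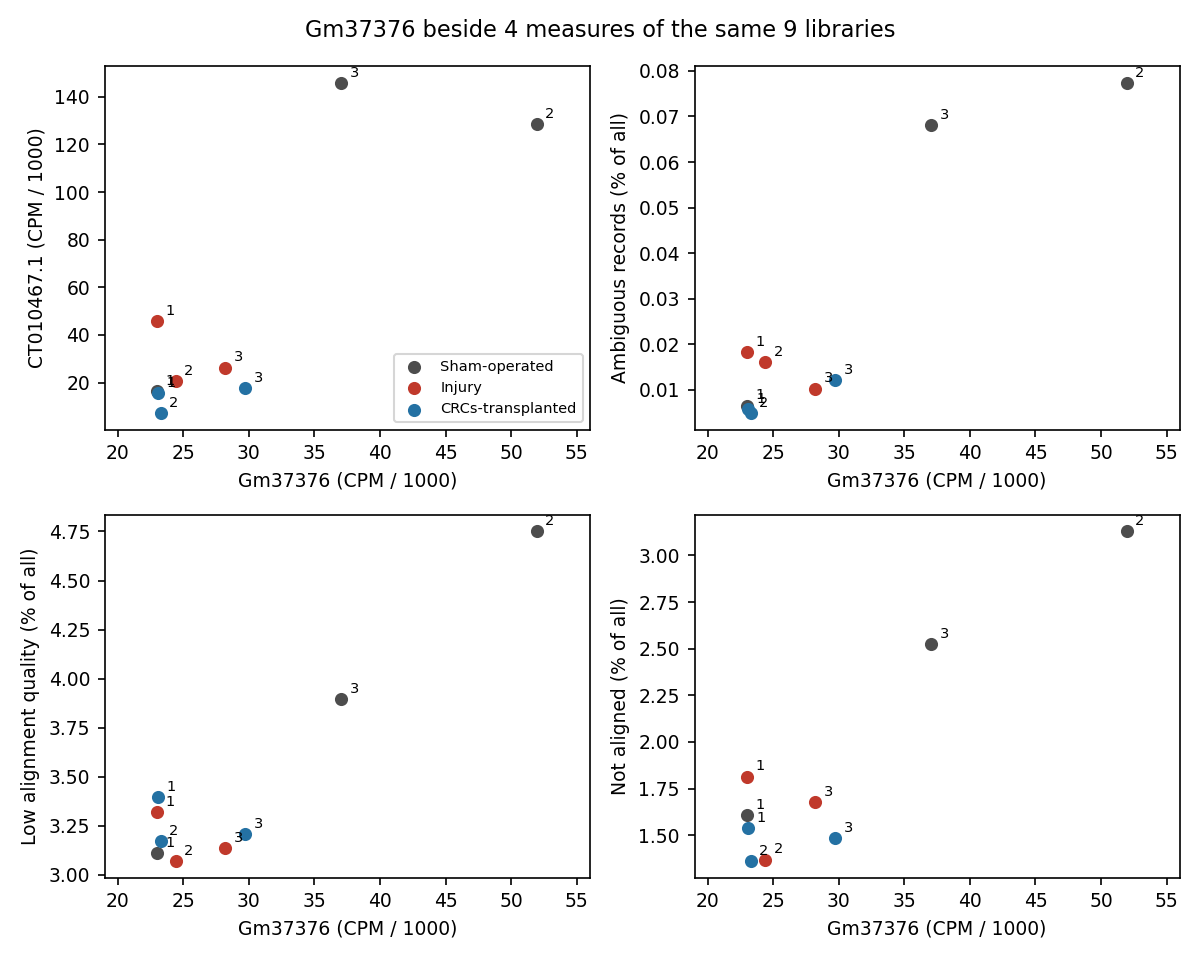
Each point is 1 of the 9 libraries, coloured by group and numbered by replicate, with the CPM of Gm37376 (divided by 1000) on each horizontal axis. The vertical axes give the CPM of CT010467.1 (divided by 1000) and the percent of records that were ambiguous, of low alignment quality or not aligned; sham-operated replicates 2 and 3 stand apart from the other 7 libraries in all 4 plots.

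Of the 18 most abundant features, 3 had the same order of sham-operated replicates as Gm37376 (replicate 2, then 3, then 1), Gm37376 itself included. The other 2 were Tsix, the antisense RNA of Xist, and 9330162G02Rik, which lies opposite Ube3a and was named after its values were seen. The reverse order was found in 9 of the 18. Only CT010467.1 and Gm37376 of the 18 were more than 2-fold higher in sham-operated replicate 2 than in replicate 1.

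The sequence of Gm37376 is partly shared with other genes. Of its 404 words of 50 bases, 83 (20.5%) also occur in transcripts of genes other than Malat1, Neat1 and Gm37376 on either strand, against 1.73% for the main Malat1 transcript and 1.37% for the main Neat1 transcript. How records from such shared words were assigned, and whether this bears on the counts, was not tested.

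Malat1 and the long form of Neat1 share sequence at their A-rich ends, the part that stands in for a poly(A) tail. To show it, 100 bases of each RNA up to and including the last 4 A of the tract are given 5′ to 3′ on the minus strand. The capitals mark every word of at least 8 bases that both stretches hold. The Malat1 stretch is bases 6592 to 6691 of the RNA (chr19:5795982-5796081), after which the annotated transcript goes on for 292 bases, and the Neat1 stretch is the last 100 annotated bases (chr19:5824708-5824807).
Malat1 end: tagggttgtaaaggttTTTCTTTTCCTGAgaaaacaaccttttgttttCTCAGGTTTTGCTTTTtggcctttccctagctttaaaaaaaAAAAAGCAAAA
Neat1 end: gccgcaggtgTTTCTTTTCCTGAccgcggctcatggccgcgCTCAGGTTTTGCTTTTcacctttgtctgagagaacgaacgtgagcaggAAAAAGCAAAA
The stretches share 3 such words in the same order. The longest, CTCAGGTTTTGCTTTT, occurs in transcripts of 0 other genes of the 55341 searched on both strands, TTTCTTTTCCTGA in 45 (0.0813%) and AAAAAGCAAAA in 785 (1.42%). The small RNA Gm27702, annotated directly downstream of the Neat1 end, had 0 counts in all 9 libraries, as did Gm27694 inside Malat1.

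Around the locus, 21 further features are annotated within 100 kb of Malat1 and Neat1, of which 20 were counted, 9 of them at 0. Of the 4 that passed the filter, Frmd8 (110 counts in all), the DNA polymerase alpha subunit gene Pola2 (212) and Gm42067 (56), which lies opposite Dpf2, are described here. With edgeR 0 of the 4 were called in any of the 3 comparisons, 0 had an unadjusted p under 0.05, and DESeq2 called 0. Over all 3722 tested features edgeR called 0.43% for injury against sham-operated, 20.0% for CRCs-transplanted against sham-operated and 12.9% for CRCs-transplanted against injury, and 468, 1193 and 918 had an unadjusted p under 0.05. The log2 fold changes of Frmd8, Pola2 and Gm42067 were between -0.51 and 0.65 for injury against sham-operated, -0.73 and 0.53 for CRCs-transplanted against sham-operated and -0.22 and 0.19 for CRCs-transplanted against injury. All counted neighbours together held 649 counts, beside 78001 on Gm37376.

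Over all features, the edgeR fit called 16 of 3722 features (0.43%) at an adjusted p under 0.05 for injury against sham-operated, 10 higher and 6 lower. It called 746 (20.0%) for CRCs-transplanted against sham-operated, 299 higher and 447 lower, and 481 (12.9%) for CRCs-transplanted against injury, 190 higher and 291 lower. The groups of 3 did not overlap for 585 features (15.7%), 1322 (35.5%) and 1247 (33.5%) in the same order of comparisons. The count of 16 was 154 without sham-operated replicate 1, 3 without sham-operated replicate 3, 8, 3 and 4 without injury replicates 1, 2 and 3, and 10 without CRCs-transplanted replicate 3. With library sizes taken from all records, the median over all features shifted on the log2 scale by 0.09, 0.29 and 0.20, and the calls were split into 14 higher and 3 lower, 643 and 281, and 339 and 190.

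Proteins of nuclear speckles, of paraspeckles and of the Malat1 end, and other long non-coding RNAs, were described with 4 lists of 96 genes, of which 94 were in the tables and 19 passed the filter. For injury against sham-operated, edgeR called 0 of the 19, with 3 at an unadjusted p under 0.05 and 0 called by DESeq2. For CRCs-transplanted against injury it also called 0 of the 19, with 0 at an unadjusted p under 0.05 and 0 called by DESeq2. For CRCs-transplanted against sham-operated it called 3 of the 19, with Rbm25 and Tsix among them, while 4 had an unadjusted p under 0.05 and DESeq2 called 2. Beside these counts stand the shares called over all tested features, 0.43%, 12.9% and 20.0% in the order just given, and the 468, 918 and 1193 of 3722 at an unadjusted p under 0.05, so the count of 3 is not above the background. The median log2 fold change of the 19 was 0.03, 0.14 and 0.05 in the order injury against sham-operated, CRCs-transplanted against sham-operated and CRCs-transplanted against injury, beside -0.01, 0.03 and 0.01 over all features.

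Of the 30 genes for proteins of nuclear speckles, 8 passed the filter, and 1 was called, lower in CRCs-transplanted than in sham-operated mice, beside the 20.0% called over all features. This was Rbm25, a splicing regulator, with 28, 91 and 47 counts in the sham-operated, 21, 31 and 27 in the injury and 23, 14 and 27 in the CRCs-transplanted libraries. Sham-operated replicates 2 and 3 were again the highest, and the sham-operated and CRCs-transplanted groups did not overlap, as for 35.5% of all features. The log2 fold change was -1.59 (SE 0.38, edgeR adjusted p = 0.00295). With sham-operated replicates 2 and 3 both left out it was -0.53 (adjusted p = 0.549), while the adjusted p was under 0.05 in the other 18 of 19 alternatives and 2.83e-05 at the lowest. Gm29361, on the strand opposite Rbm25, had 1399 counts and was not called (log2 fold change -0.09, SE 0.17), and the strand of origin of the counts on both carries the same limit as for Gm37376. The 8 had median log2 fold changes of -0.23, -0.23 and 0.01 in the same order of comparisons.

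Of 5 tested features opposite speckle genes, edgeR called 2 for CRCs-transplanted against sham-operated and 1 for CRCs-transplanted against injury. DESeq2 called 2 in each of these comparisons. Over all features edgeR called 20.0% and 12.9%. The groups did not overlap for 35.5% and 33.5% of all features in these 2 comparisons, and for 15.7% in injury against sham-operated. Mettl23, a methyltransferase gene opposite the splicing factor gene Srsf2, had 2636 ± 571 CPM in sham-operated, 1801 ± 286 in injured and 767 ± 68.1 in CRCs-transplanted mice (SD, n = 3 each), without overlap between any groups. Its log2 fold change was -1.78 (SE 0.16, edgeR adjusted p = 2.34e-09) for CRCs-transplanted against sham-operated. For CRCs-transplanted against injury it was -1.23 (SE 0.16, edgeR adjusted p = 2.37e-06), and both calls held in 19 of 19 alternatives. Gm12992, opposite Srsf4, had 3550 ± 116, 3317 ± 142 and 2586 ± 23.3 CPM, with a log2 fold change of -0.46 (SE 0.12, edgeR adjusted p = 0.00803) for CRCs-transplanted against sham-operated. That adjusted p was 0.107 without a filter on low counts and 0.359 with library sizes from all records, and 0.000322 at the lowest over the 19 alternatives. For both features the strand of origin carries the same limit as for Gm37376.

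Of the 26 genes for paraspeckle proteins, 2 passed the filter, of which Rbm4b, a gene for an RNA-binding protein, is described here. It had 1315, 1001 and 902 counts in the sham-operated, 1279, 1477 and 1291 in the injury and 1263, 1425 and 1350 in the CRCs-transplanted libraries. In CPM, the injury libraries were above the sham-operated and the CRCs-transplanted ones without overlap, while the other 2 groups overlapped. Over all tested features, the injury group did not overlap with the sham-operated group for 15.7% and with the CRCs-transplanted group for 33.5%. Rbm4b, with 11303 counts in all, was not called in any comparison, at 3732 ± 520, 4720 ± 412 and 4114 ± 266 CPM. Of 4 tested features opposite paraspeckle genes edgeR called 0 in any comparison, with 2 at an unadjusted p under 0.05 for CRCs-transplanted against sham-operated and 0 called by DESeq2. Over all features 20.0% were called in that comparison and 1193 of 3722 had an unadjusted p under 0.05.

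Of the 15 genes for enzymes and binding proteins of the Malat1 end, only Pop5, a subunit of RNase P, and Trnt1, which adds CCA to tRNA ends, passed the filter. Pop5 was at 53.9 ± 7.46, 81.6 ± 15.2 and 65.3 ± 25.1 CPM, and Trnt1 at 62.0 ± 38.8, 70.1 ± 28.2 and 118 ± 25.1 CPM. edgeR called 0 of the 2 in any comparison, with 1 at an unadjusted p under 0.05 for CRCs-transplanted against sham-operated, and DESeq2 called 0. Here too, 20.0% of all features were called and 1193 of 3722 had an unadjusted p under 0.05.

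Of 25 other long non-coding RNAs, 7 passed the filter (Xist, Tsix, Ftx, Jpx, Kcnq1ot1, Firre and Oip5os1). Tsix had 44560 counts, rank 5 of all features, against 77 on Xist, the RNA that coats the inactive X chromosome. Of the counts on this pair 99.8% were on Tsix, and whether they came from Tsix RNA or from Xist RNA on the opposite strand cannot be told apart, as for Gm37376. The level of Tsix was 16853, 22645 and 19227 CPM in the sham-operated libraries, with means of 19575 ± 2912, 15569 ± 409 and 14792 ± 781 CPM. As for Gm37376, sham-operated replicate 2 was the highest library and replicate 3 came next. Here, however, replicate 1 was also above the injury and CRCs-transplanted libraries. Over all features, the sham-operated group did not overlap with the injury group for 15.7% and with the CRCs-transplanted group for 35.5%. Tsix was called for CRCs-transplanted against sham-operated, with a log2 fold change of -0.40 (SE 0.12, edgeR adjusted p = 0.0134). The adjusted p was 0.0577 without sham-operated replicate 2, 0.095 without CRCs-transplanted replicate 3, 0.286 with sham-operated replicates 2 and 3 both left out, 0.0918 without a filter on low counts and 0.515 with library sizes from all records, in a range of 0.000404 to 0.515 over 19 alternatives. Kcnq1ot1, an imprinted nuclear RNA with 6313 counts, was at 2194 ± 15.6, 2368 ± 104 and 2445 ± 123 CPM and was not called.

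The features whose pattern over the 9 libraries was most like that of Gm37376 were found by the Pearson correlation of log2 CPM among 939 tested features that averaged 50 counts or more. They were Etohd2 (r = 0.91, Spearman's rho = 0.82), the pseudogene Kpna2-ps (r = 0.89, rho = 0.75) and Rsbn1l (r = 0.89, rho = 0.75), and the least alike was Tasor (r = -0.92, rho = -0.63). Etohd2 had 652, 1036 and 844 CPM in the sham-operated libraries and 562 to 820 in the others. Tasor had 318, 96.2 and 175 CPM in the sham-operated libraries and 226 to 360 in the others. The median correlation over the 939 was 0.06. Without sham-operated replicate 2 the correlation with Etohd2 was 0.80. The points share their libraries and so their depth and the library measures above.

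For Malat1, with 940 features compared, the most alike were Zfp652 (r = 0.86, rho = 0.90), Gm44530 (r = 0.79, rho = 0.68) and Foxp3 (r = 0.78, rho = 0.80), and the least alike was 1700022N22Rik (r = -0.86, rho = -0.77). Zfp652 had 198, 337 and 311 CPM in the sham-operated libraries, so that replicate 1 was the lowest of the 3 there too. Malat1 and Gm37376 were correlated over the 9 libraries with r = 0.61 and rho = 0.80, and Gm37376 and CT010467.1 with r = 0.79 and rho = 0.52. These are descriptions over 9 libraries with few counts on Malat1.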

How the data were processed

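RNA was measured in uterine tissue of 9 mice, 3 per group, with groups and replicate numbers taken from the labels. The authors removed ribosomal RNA, aligned paired reads of 150 bases with HISAT2 2.1.0 and used StringTie 2.1.1. They deposited whole-number counts per feature without normalization; the format is that of HTSeq, whose version and strand setting are not given in the sources used here. The 5 rows of unassigned records (99.2%) were kept out of library sizes and tests.

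Positions came from GENCODE M21 on GRCm38, which matched 53569 features by name. Counts were analysed with edgeR 4.0.16 in R 4.3.3 (filterByExpr, TMM, robust quasi-likelihood fit of all 9 libraries without covariates, Benjamini-Hochberg adjustment over all 3722 features), which was tested on simulated data. Alternatives were DESeq2 1.42.0, other scalings and filters, a replicate block and leaving out libraries. Python 3.11.15 with scipy 1.17.1 and matplotlib 3.10.9 gave intervals and figures.

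The members and lists were chosen with earlier results of these data known. The genes named are the members, tested neighbours within 100 kb, features opposite a member, the 3 most and 1 least alike features per member that passed the filter, and up to 4 called genes per list and comparison. Other names were added after their values were seen. P-values measure the spread between single mice. Some genes and sequences covered by these rules are not reported here.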

Additional observations from a re-analysis of the deposited data

How the results depend on the processing

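The calls for CRCs-transplanted against sham-operated and against injury stayed within 1.5 times of 746 and 481 in each alternative run. The 16 calls for injury against sham-operated were 5 with the replicate block, 6 with only the 2 groups fitted, 3 to 154 when single libraries were left out and 9 with sham-operated replicates 2 and 3 both left out. Same-numbered libraries did not deviate together (correlations of -0.10 to 0.08), so the numbers were not taken as pairs, and the replicate block moved no other count by more than 1.5 times.

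Against the sham-operated group, the log2 fold changes of Gm37376 were below 0 in 17 of 17 alternatives. These were each scaling, filter and fit and leaving out any single library. The weakest for CRCs-transplanted against sham-operated was -0.25 (SE 0.22), with library sizes from all records. With sham-operated replicates 2 and 3 both left out, the log2 fold changes of Gm37376 were 0.12 (injury) and 0.085 (CRCs-transplanted). Those of Malat1 were then 2.27 and 1.82. For CRCs-transplanted against injury, Gm37376 was at 0.21 with library sizes from all records and Malat1 at -0.84 to -0.20 when single libraries were left out. Sham-operated CVs were 23.7% to 54.6% for Gm37376 and 2.44% to 104% for Malat1 when single sham-operated libraries were left out, and the correlation of Gm37376 with Etohd2 was then 0.80 to 0.91; it was not run without injury or CRCs-transplanted libraries. The listed genes called, 3 for CRCs-transplanted against sham-operated, were 1 without a filter and 1 to 4 when single libraries were left out, and for injury against sham-operated 0 to 3. Why these values moved was not tested. Few counts limit the values of Malat1, with 3 to 18 a library, and Neat1, with 0 to 4; why they were few was not tested.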
